A study of Mus musculus with 6 samples.

Results

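The oligoadenylate synthetase (OAS) family was followed in mature mouse dendritic cells with and without Mettl3, the catalytic subunit of the complex that places N6-methyladenosine (m6A) on mRNA. The members are the 6 genes Oas1a, Oas1g, Oas2, Oas3, Oasl1 and Oasl2, taken by symbol from 23863 genes of the expression sheet. Each of the 6 was found once, and all 6 passed the filter of a mean of at least 1 RPKM (reads per kilobase of transcript, scaled to the depth of the library) over the libraries, which 10531 genes passed. KO cells came from Mettl3 fl/fl mice on C57BL/6 that carried CD11c-Cre, and WT cells from Mettl3 fl/fl littermates, so the floxed allele is common to both. CD11c-Cre acts in cells that express CD11c, and the deletion removes early exons only. Bone marrow of 6-week-old mice was grown with GM-CSF at 10 ng/ml and IL-4 at 1 ng/ml, selected on CD11c beads and exposed to LPS at 100 ng/ml for 24 h. Each culture was then divided, and transcription was blocked in its parts with actinomycin D for 0, 3 or 6 h. Poly(A) RNA of every part was sequenced as 1 library, which gives 6 libraries and 1 per genotype and time. No replicate therefore checks any difference, no test across samples can be made, and how many mice were pooled in a culture is not stated. More than 1 littermate pair was used in the lifetime experiment, and a single culture per genotype is analysed here.

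OAS proteins are interferon-induced sensors of double-stranded RNA. On binding it, the enzymes join ATP into 2′-5′-linked oligoadenylates, a second messenger of the antiviral response. Oas1a and Oas1g encode small synthetases, Oas2 and Oas3 encode longer enzymes built of repeated synthetase units, and Oasl1 and Oasl2 encode OAS-like proteins with ubiquitin-like domains. In mouse, Oasl2 retains synthetase activity, whereas Oasl1 lacks it and is known as a brake on translation of Irf7 mRNA. In dendritic cells that sense LPS, type I interferon made by the cells themselves acts through a transcription factor complex that binds the interferon-stimulated response element (ISRE) of such genes.

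All OAS genes lay on chromosome 5 of mm10 (GENCODE M21 annotation) in 2 clusters. Oasl2 (chr5:114896936-114912234, plus strand) and Oasl1 (chr5:114923240-114937915, plus strand) formed a cluster of 40.98 kb. Oas2 (chr5:120730333-120749853), Oas3 (chr5:120753098-120777661), Oas1g (chr5:120876142-120887613) and Oas1a (chr5:120896256-120907521), all on the minus strand, lay in a cluster of 191.32 kb with 6 further Oas1 paralogs. Promoters of 5 of the 6 members, all but Oas2, matched the RefSeq table (build GRCm38.p6, 250 bases before to 50 bases after the start). They were searched on both strands for the ISRE core GAAANNGAAA. It was found in 3 of these 5 promoters, those of Oas1a, Oas1g and Oas3, against 3.44% of all 32851 promoters. Stretches that end just after the match are given next because they show how closely the Oas1a and Oas1g promoters resemble each other. Each runs 5′ to 3′ along its gene, and capitals mark the ISRE core, or 2 overlapping cores that share their middle GAAA.
Oas1a, chr5:120907526-120907585, minus strand: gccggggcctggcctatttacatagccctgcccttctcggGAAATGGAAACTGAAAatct
Oas1g, chr5:120887612-120887671, minus strand: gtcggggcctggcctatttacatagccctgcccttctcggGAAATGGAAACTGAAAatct
Oas3, chr5:120777721-120777774, minus strand: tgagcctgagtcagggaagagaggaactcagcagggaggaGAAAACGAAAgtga
Oas1b, chr5:120812573-120812632, plus strand: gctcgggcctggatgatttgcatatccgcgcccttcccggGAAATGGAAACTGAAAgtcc
The Oas1b stretch was read on the opposite strand of the Oas1c promoter entry, since the genes lie head to head there. Oas1a and Oas1g were identical at 59 of 60 bases shown, and Oas1b matched Oas1a at 48 of 60. The overlapping cores ended 9 bases upstream of the annotated start of Oas1a, 3 bases upstream of that of Oas1g and 7 bases upstream of that of Oas1b. In Oas3 the core ended 64 bases upstream. The 16 letters GAAATGGAAACTGAAA occurred in 7 of the 32851 promoter entries (0.0213%), which belong to Oas1a, Oas1g, Oas1c, Apol9a and Apol9b. No ISRE core stood in the windows of Oasl1 and Oasl2. The GAS (gamma-activated site) element TTCNNNGAA was found among the members only in Oas1a, at a single place that reads alike on both strands, against 8.30% of all promoters. A match is a description of the letters and not evidence of a bound factor.

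Before the members are described, limits of the libraries have to be stated. Depth was estimated from the smallest RPKM steps at 18000000 to 22000000 reads per library, which puts approximately 984 to 12200 reads on each member in each library. The counting error of a KO to WT log2 ratio of a member was then 0.0195 to 0.0559. This covers the counting of reads only, and the spread between cultures is unknown. For Mettl3 itself the KO libraries gave 6.99, 4.83 and 4.06 RPKM and the WT libraries 7.79, 2.68 and 2.59 RPKM. These values run over the whole gene and so do not check the deletion of the early exons. ERCC spike-in RNA (synthetic transcripts added in proportion to total RNA) gave 1 factor per library for comparisons over time. On that scale the KO library at 6 h stood apart, because the median gene held 12.7% of its 0 h amount at 3 h and 15.1% at 6 h in KO, against 19.1% and 8.80% in WT. Marker transcripts of the labelled cells were present, with 12 of 12 dendritic cell markers above the filter, Itgax (CD11c) at 10.0 to 27.7 RPKM in KO and 13.1 to 26.0 RPKM in WT, and Cd74 at 2884 RPKM or more in every library.

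**Figure D1:**
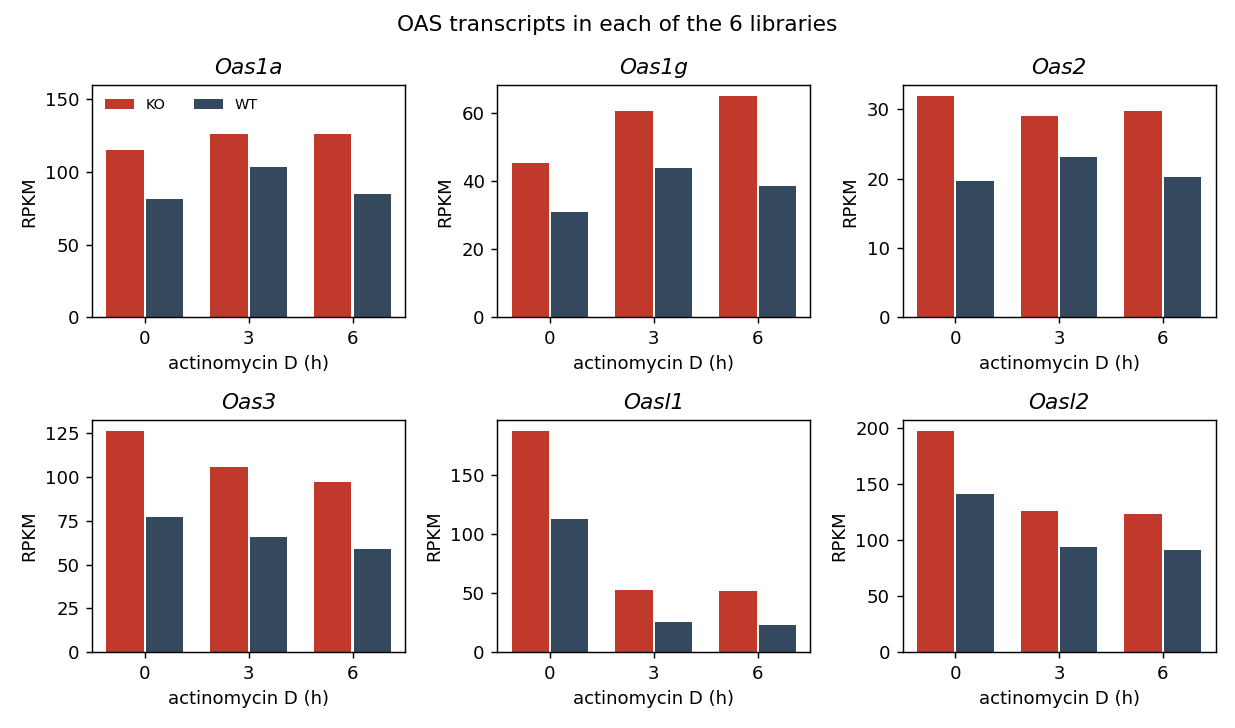
RPKM of the 6 OAS genes by hours of actinomycin D, with KO bars left of WT bars and each bar standing for 1 library (no error bars, since there are no replicates). KO bars are above WT bars in all 18 pairs, and Oasl1 is the gene whose bars drop most after 0 h.

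All 6 OAS transcripts were read at a higher level in the KO culture than in the WT culture at every time. Per length, Oasl2 was the most abundant member before actinomycin D in both cultures and Oas2 the least abundant. At 0 h the members summed to 703 RPKM in KO, against 463 RPKM in WT.

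After 0, 3 and 6 h of actinomycin D, Oas1a, a small synthetase, had 115.2, 126.1 and 126.1 RPKM in KO, against 81.7, 103.9 and 84.7 RPKM in WT. The lowest KO value lay above the highest WT value, as it did for 4 of the 6 members (Oas1a, Oas1g, Oas2 and Oas3), against 3.92% of tested genes. Oas1g, its close paralog, was read at 45.3, 60.7 and 65.1 RPKM in KO, against 31.0, 44.0 and 38.5 RPKM in WT. Here the lowest KO value lay just above the highest WT value, so that the gap was narrower than for Oas1a. The coding sequences of Oas1a and Oas1g are identical at 96.7% of their 1104 bases, and 57.6% of the 50-base words of the Oas1a transcript also occur in Oas1g. How reads common to both were divided between them is not stated, and their separate levels are uncertain. Their ratio was 2.54, 2.08 and 1.94 in KO and 2.64, 2.36 and 2.20 in WT at 0, 3 and 6 h.

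Oas2, a synthetase of intermediate length, was read at 31.9, 29.1 and 29.8 RPKM in KO and at 19.7, 23.2 and 20.2 RPKM in WT. It shared no 50-base word with another gene and was the lowest member in all 6 libraries. Oas3, the longest synthetase and a sensor of long double-stranded RNA, was read at 126.4, 105.6 and 97.1 RPKM in KO and at 77.4, 66.0 and 59.2 RPKM in WT. Oas3 RPKM declined a little over the times in both cultures, and the groups did not overlap.

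Oasl1, the OAS-like protein without synthetase activity, was read at 187.3, 52.9 and 52.2 RPKM in KO and at 112.6, 25.4 and 22.6 RPKM in WT. It was the second most abundant member at 0 h and the second least abundant at 3 and 6 h in both cultures. Both OAS-like genes lost RPKM after 0 h, so that their KO values at 3 and 6 h lay below the WT value at 0 h. Oasl2 was read at 197.1, 126.1 and 123.0 RPKM in KO and at 141.0, 94.0 and 90.9 RPKM in WT. The ratio of Oasl2 to Oasl1 was 1.05, 2.38 and 2.36 in KO and 1.25, 3.71 and 4.01 in WT at 0, 3 and 6 h. At 0 h Oasl2 was the 476th most abundant gene of the KO library and the 592nd of the WT library, whereas Oas2 was the 2756th and the 3897th.

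Of 30 steps between neighbours in the order of RPKM within a library, 2 were smaller than 2 counting errors. Both concern Oas1a and Oasl2 in KO, with 126.145 and 126.099 RPKM at 3 h and 126.1 and 123.0 RPKM at 6 h. Oas1a and Oas3 exchanged places between the cultures at 0 h, with 115.2 and 126.4 RPKM in KO and 81.7 and 77.4 RPKM in WT.

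**Figure D2:**
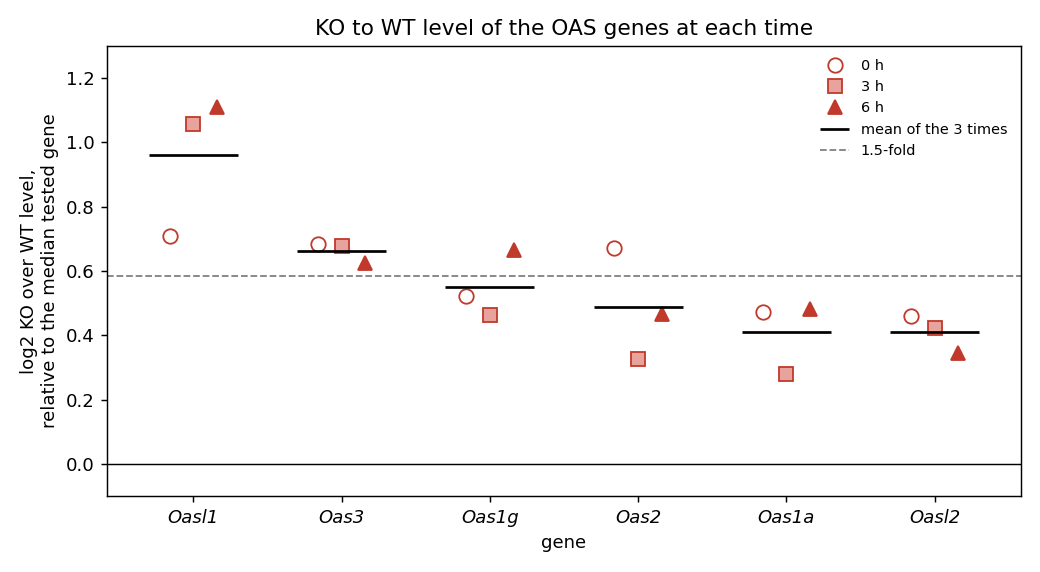
log2 ratio of the KO to the WT level of each OAS gene at 0, 3 and 6 h, relative to the median tested gene (zero line), with 1 library on each side of every ratio. Black bars are means of the 3 times and the dashed line marks 1.5-fold. All 18 points are above zero, and those of Oasl1 and Oas3 are all above the dashed line.

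KO to WT ratios were computed on log2(RPKM + 0.1) and set relative to the median tested gene of each time. The mean of a member over the times lay between 0.41 and 0.96, with a median over the 6 members of 0.52, beside -0.00212 over all 10531 tested genes. All 6 members were above the median gene at all 3 times, a pattern that 26.7% of tested genes also showed. By the rule of at least 1.5-fold at all 3 times, 2 of the 6 members were higher in KO, Oasl1 and Oas3, against 1.7% of tested genes. None was lower in KO by the same rule, against 0.845% of tested genes. The 3 times of a genotype are taken as parts of 1 culture and do not count as replicates.

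Oasl1 had the widest gap, with log2 ratios of 0.71, 1.06 and 1.11 at 0, 3 and 6 h (mean 0.96 ± 0.22, SD over the 3 times). Of the tested genes, 98.4% had a lower mean. Oas3 had the steadiest one, with 0.68, 0.68 and 0.62 (0.66 ± 0.03), and 96.5% of tested genes lay below it.

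The other members stayed under the 1.5-fold line at one time or more. Oas1g had log2 ratios of 0.52, 0.46 and 0.67 (0.55 ± 0.10, above 95.0% of tested genes). Oas2 had 0.67, 0.33 and 0.47 (0.49 ± 0.17, above 93.6%). It passed 1.5-fold only at 0 h. Oas1a had 0.47, 0.28 and 0.48 (0.41 ± 0.11, above 91.1%). Oasl2 had 0.46, 0.42 and 0.35 (0.41 ± 0.06, above 91.0%). For Oas3 the SD of 0.03 was of the size of its counting errors, and for the other members it was wider than theirs.

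Without the 6 h libraries the same rule again counted Oas3 and Oasl1, against 2.61% of tested genes. With the 0 h libraries alone, an alternative added after the data were seen, 3 of the 6 members were at least 1.5-fold higher in KO (Oas2, Oas3 and Oasl1), against 4.46% of tested genes. On the spike-in scale the ratios of all 6 members were positive at all 3 times as well, but they moved with the factors of the libraries. The median gene had a KO to WT log2 ratio of 0.36, -0.22 and 1.11 at 0, 3 and 6 h on that scale, and of 0.02, -0.000238 and 0.09 in RPKM. Oasl1 had 1.07, 0.83 and 2.22 on the spike-in scale and Oas3 had 1.05, 0.45 and 1.74, so that Oas3 passed 1.5-fold only at 0 and 6 h there. Oas1a was nearest to zero, with 0.84, 0.06 and 1.60.

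**Figure D3:**
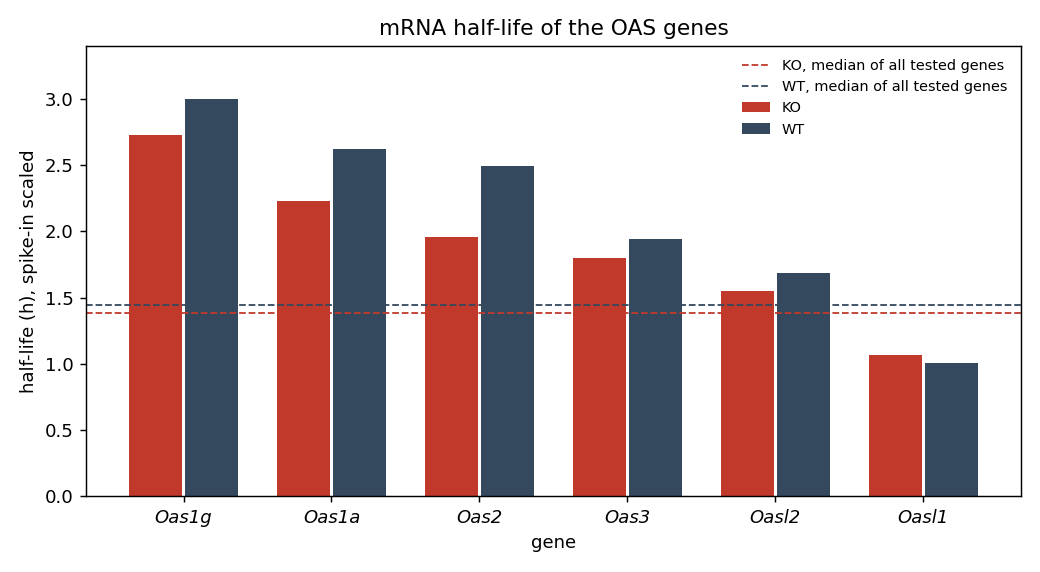
Spike-in scaled mRNA half-life in hours of each OAS gene, with KO bars left of WT bars, each from 3 libraries of 1 culture. Dashed lines are the medians of all tested genes, 1.38 h in KO and 1.44 h in WT. Both cultures give the same order, from Oas1g to Oasl1, and only the Oasl1 bars are under the lines.

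OAS mRNAs were longer-lived than the median gene in both cultures, with the exception of Oasl1. Half-lives were taken from the mean of the decay rates from 0 to 3 h and from 0 to 6 h on the spike-in scale. The median over the members was 1.88 h in KO and 2.22 h in WT, beside 1.38 h in KO and 1.44 h in WT over all tested genes. Their order was the same in both cultures. Without the 6 h libraries, from the rate between 0 and 3 h alone, the members ran from 0.776 h (Oasl1) to 1.85 h (Oas1g) in KO and from 0.827 h (Oasl1) to 3.08 h (Oas1g) in WT, in the same order, beside a median gene of 1.01 h in KO and 1.26 h in WT.

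Oas1g mRNA was the longest-lived, with a half-life of 2.73 h in KO and 3.00 h in WT. Only 3.81% of tested genes in KO and 4.33% in WT decayed more slowly. Oas1a followed with 2.23 h in KO and 2.62 h in WT, and Oas2 with 1.96 h in KO and 2.49 h in WT. The small synthetases and Oas2 thus had the most stable transcripts of the family.

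Oas3 had a half-life of 1.80 h in KO and 1.95 h in WT. Oasl2 lay close to the typical gene, with 1.55 h in KO and 1.68 h in WT. Oasl1 had 1.07 h in KO and 1.01 h in WT, and 86.1% of tested genes in KO and 92.7% in WT decayed more slowly. Hence the paralogs Oasl1 and Oasl2, neighbours on the chromosome, were on opposite sides of the median gene in both cultures.

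**Figure D4:**
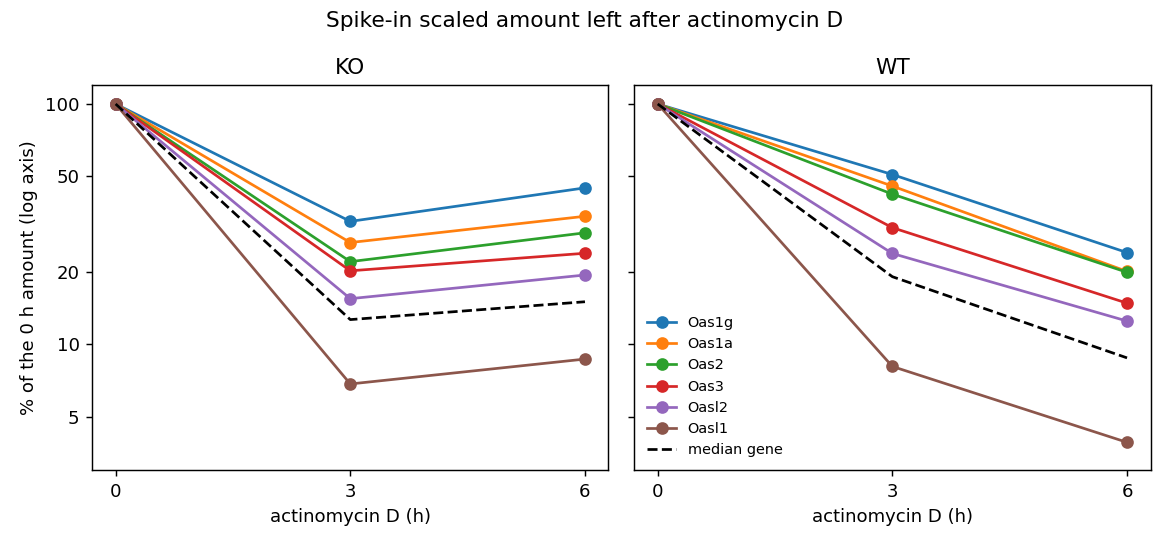
Percentage of the 0 h amount left after 3 and 6 h of actinomycin D on the spike-in scale (log axis), KO in the left panel and WT in the right, with 1 library per point. Oasl1 runs under the dashed median gene and the other members above it, and all KO lines turn up between 3 and 6 h while all WT lines go on down.

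At 3 h, 32.5% of Oas1g mRNA was left in KO and 50.9% in WT. The corresponding values were 26.5% in KO and 45.6% in WT for Oas1a, and 22.1% in KO and 42.2% in WT for Oas2. For Oas3 they were 20.2% in KO and 30.6% in WT. For Oasl2 they were 15.5% in KO and 23.9% in WT. Oasl1 retained 6.85% in KO and 8.10% in WT. All 6 members thus kept a smaller share in KO than in WT at 3 h, as did the median gene (12.7% in KO and 19.1% in WT).

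At 6 h the order between the cultures was the opposite. Oas1g mRNA stood at 44.8% in KO and 24.1% in WT, and Oasl1 mRNA at 8.70% in KO and 3.92% in WT. The 4 other members stood between 19.4% (Oasl2) and 34.1% (Oas1a) in KO, and between 12.5% (Oasl2) and 20.1% (Oas1a) in WT. The median gene moved alike, with 15.1% in KO and 8.80% in WT, so that this turn is shared with most genes of the libraries.

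No member met the rule for a difference in decay, which asks for half-lives at least 1.5-fold apart relative to the median gene and for both rates to differ in the same direction. Slower decay in KO was counted for 0 of 6 members, against 1.03% of tested genes, and faster decay for 0 of 6, against 0.902%. Relative to the median gene, the decay rate in KO minus that in WT was 0.0740 per h for Oas2, 0.0305 for Oas1a, 0.0150 for Oasl2, 0.00590 for Oas3, -0.00255 for Oas1g and -0.0915 for Oasl1. Oas2 lay above 90.4% of tested genes and Oasl1 below all but 8.75%. These are the members at either end, and neither difference was large enough to be counted.

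Sequence features that the choice of genes did not use varied among the transcripts. The AU-rich pentamer ATTTA, searched on the transcript strand after the stop codon, occurred 2 times in Oas1g, once in Oas1a, Oas2, Oas3 and Oasl2, and not in Oasl1, whose mRNA was the shortest-lived member. Of 9820 tested genes with a coding transcript, 64.0% held at least 1. The letters GGACT, one of the sequences in which m6A is found, occurred once in Oas1a and Oas1g, 3 times in Oasl1 and Oasl2, and 5 times in Oas2 and Oas3. Per kb of transcript this gave 0.506 in Oas1g to 1.38 in Oasl1, beside a median of 1.05 over these genes. No methylation was measured in these libraries.

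Profiles over the 6 libraries were also compared between each member and the 6775 other genes that averaged 5 RPKM or more, by the root mean square (r.m.s.) difference of log2 values after each library was set to its median gene and each gene to its own mean. Within the family, Oas1a and Oas2 were nearest to each other at 0.0978, and Oas1a and Oas1g lay at 0.156. Oasl1 stood off from every other member by 0.721 to 1.19. The 3 genes most like Oasl1 were Trex1, a DNA exonuclease, at 0.0780, and then Leng9 at 0.159 and Orai3 at 0.179. Trex1 was read at 368, 111 and 97.9 RPKM in KO and at 224, 56.2 and 44.3 RPKM in WT, so that it dropped as steeply after 0 h as Oasl1.

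The other members had different nearest genes. These were Tmem219, Grina and Hypk for Oas1a (0.0544 to 0.0636), Vill, Cd38 and Ly6e for Oas1g (0.0663 to 0.0780), and Glo1, Acaa1b and Oas1a for Oas2 (0.0630 to 0.0978). They were Tomm22, Idua and Rp9 for Oas3 (0.0875 to 0.0941), and B3gat3, Msl1 and Slc12a9 for Oasl2 (0.0379 to 0.0424). With 6 points that share their libraries, these distances describe profiles only.

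Of 6 other mouse OAS paralogs, Oas1b and Oas1c passed the filter. Oas1b, a truncated gene in C57BL/6 that is annotated as a polymorphic pseudogene and known for flavivirus resistance in strains with the intact form, was read at 17.4, 14.5 and 16.6 RPKM in KO and at 10.1, 10.7 and 13.1 RPKM in WT. Oas1c was read at 6.62, 6.13 and 5.004 RPKM in KO and at 4.32, 3.78 and 3.43 RPKM in WT. Both lay above WT at all 3 times relative to the median gene (means 0.48 ± 0.26 and 0.57 ± 0.12), as did 26.7% of tested genes. Neither was counted as higher, against 1.7% of tested genes. Oas1d was listed at 0 in every library, and Oas1e, Oas1f and Oas1h were at most 0.205 RPKM, so that transcripts of the large cluster came from a part of its genes. Of 9 non-OAS genes within 100 kb of the clusters, 4 passed the filter, all beside Oasl1 and Oasl2. Of these 4, 0 were counted, against 1.7% of tested genes counted as higher and 0.845% as lower. Their mean log2 ratios lay between -0.66 (1500011B03Rik) and -0.01 (2210016L21Rik).

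Of 10 sensors of double-stranded RNA or DNA and their adaptors, 1 was counted as higher in KO and 0 as lower, with a median of 0.30. Over all tested genes the shares were 1.7% and 0.845%, and a single gene carries the count here. That gene was Tlr3, the endosomal receptor for double-stranded RNA, at 3.41, 1.89 and 1.46 RPKM in KO and 1.86, 0.65 and 0.64 RPKM in WT. The adaptor Mavs was lowest in the list at 0.05 ± 0.14.

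Of 19 genes of type I interferon production and signalling, 17 passed the filter, with a median of 0.19. Of the 17, 1 was counted as higher and 0 as lower, against 1.7% and 0.845% of tested genes, so that this count also rests on a single gene. The one counted was Usp18, a brake on the interferon receptor, at 0.87 ± 0.18, and the lowest was the receptor kinase Jak1 at -0.16 ± 0.14. Ifnb1, which encodes interferon beta, was below the filter, with 1.57, 0.26 and 1.54 RPKM in KO and 0.13, 0.13 and 0 RPKM in WT. Irf7, the interferon regulatory factor whose mRNA Oasl1 acts on, was at 662, 972 and 1301 RPKM in KO and 376, 622 and 850 RPKM in WT (0.65 ± 0.13), and fell short of 1.5-fold at 6 h. Of the factors that bind the ISRE, Stat2 had 0.44 ± 0.19 and Irf9 0.19 ± 0.06.

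Of 40 other interferon-stimulated genes, 12 were counted as higher in KO and 0 as lower, against 1.7% and 0.845% of tested genes. Of the 40, 36 lay above WT at all 3 times relative to the median gene, against 26.7% of tested genes. The median of the list was 0.53, close to the 0.52 of the OAS members. The 12 include Isg15, Ifit1, Ifit2, Ifit3, Rsad2 and Cmpk2, and this list shares 10 genes with the preceding lists. Their median half-life was 1.42 h in KO and 1.49 h in WT, shorter than the 1.88 h and 2.22 h of the OAS members in the same cultures. Neither comparison of the lists was tested. Members and lists were chosen with earlier results of these data known, so the closeness of their medians is no independent observation.

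In bulk RNA, more cells of a type and more RNA per cell cannot be told apart, and markers of other cells differed between the cultures. Over all tested genes, 1.7% were counted as higher in KO and 0.845% as lower. Of 12 dendritic cell markers, 0 were counted, and their sum was 10181 to 13658 RPKM in KO and 11455 to 16800 RPKM in WT. Of 11 tested macrophage markers, 3 were counted as higher in KO (Fcgr1, Apoe and C1qa) and 0 as lower, with a median of 0.26 over the list. For 7 of the 11, the ratio relative to the median gene was positive in every comparison. The rest did not share this, with means of -0.29 ± 0.27 for Cd14 and -0.28 ± 0.07 for Adgre1. Mertk had -2.3e-05 ± 0.30 and Cd68 0.05 ± 0.20. The macrophage markers summed to 1387 to 2011 RPKM in KO and 1301 to 1743 RPKM in WT. Cd163 was listed at 0 in every library. Of 8 tested neutrophil markers, 2 were higher (Ltf and Ngp) and 1 lower (Mmp8) in KO, with a median of 0.91 over the list. The markers summed to 14408 RPKM in KO and 7481 RPKM in WT at 0 h. At 3 h the sums were 10603 RPKM in KO and 8201 RPKM in WT, and at 6 h they were 7007 and 6923 RPKM. Elane and Mpo were at most 0.583 RPKM. Of the plasmacytoid dendritic cell markers only Tcf4 of 6 passed the filter, and Siglech was at most 0.0935 RPKM. No B cell or NK cell marker passed the filter, and 0 of 2 tested T cell markers and 0 of 2 tested mast cell and basophil markers were counted. The part of these cells in the OAS levels was not tested.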

How the data were processed

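The authors sequenced poly(A) RNA and, per the labels, used bcl2fastq, TopHat2 2.0.14 and Cuffnorm with mm10. Which annotation and strand setting they chose is not stated. The library kit is named differently in the labels and in the study's methods. The deposited values are RPKM: each column holds RPKM plus 1 multiplied by 1 factor, and dividing by the column minimum and subtracting 1 gave RPKM back. Titles carry D2 for KO and D3 for WT, which cannot be told apart from genotype, and their meaning is not given. The 2 deposited columns of lifetimes calculated by the authors were not used, and 27 genes whose symbols had turned into dates were left out.

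Genes averaging 1 RPKM or more were kept and a pseudocount of 0.1 was added, which understates differences of low genes. Spike-in factors were median log2 ratios over the 75 of 92 ERCC transcripts above 0 in every library, relative to WT at 0 h. They were 1.27, 0.307 and 0.395 in KO at 0, 3 and 6 h, and 1, 0.358 and 0.194 in WT. Half-life was the inverse of the hourly log2 loss, averaged over the spans 0 to 3 h and 0 to 6 h. With 1 library per group nothing was tested, and differences were counted from 1.5-fold on. All members are named, with Ifnb1, Irf7, Stat2 and Irf9, the 3 most similar genes per member, and Mettl3. Counted or extreme genes of the paralog, sensor and interferon signalling lists are named too. Of the other interferon-stimulated genes, only some of those counted are named. Members and lists were chosen with earlier results of these data known. Motif counts in transcripts and shared words came from the GENCODE M21 transcript with the longest coding part of each gene. Rules were run on simulated reads with planted level changes above the mean of any member and planted faster decay. Slower decay and spread between cultures were not simulated, so the run does not show how the rules perform at the sizes reported. Other scalings, pseudocounts, filters, thresholds, times and rate definitions were tried. Python 3.11.15, pandas 2.3.3 and Biopython 1.88 were used. Some genes of the lists are not reported here.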

Additional observations from a re-analysis of the deposited data

Results flagged for a closer look

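On the spike-in scale, the amount of every OAS mRNA was higher at 6 h than at 3 h of actinomycin D in KO and lower in WT, which is the opposite direction in the 2 cultures. The log2 ratio of 6 h over 3 h was 0.36 in KO and -1.18 in WT for Oas1a, and 0.46 in KO and -1.08 in WT for Oas1g. It was 0.40 in KO and -1.08 in WT for Oas2, and 0.24 in KO and -1.04 in WT for Oas3. It was 0.34 in KO and -1.05 in WT for Oasl1, and 0.33 in KO and -0.93 in WT for Oasl2. The difference was not tested, since each value rests on 1 library per genotype and time. The median gene had 0.27 in KO and -1.09 in WT, and 77.0% of the 10531 tested genes showed the same opposite directions. Relative to the median gene the members' ratios were between -0.03 and 0.19 in KO and between -0.09 and 0.15 in WT.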

How the results depend on the processing

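No OAS member reversed its KO to WT level under any scaling, pseudocount, filter or choice of times that was run. All 6 members were above WT at every time used under each of these. On the spike-in scale at 3 h, however, the log2 ratio was only 0.06 for Oas1a and 0.10 for Oas2. Over the ERCC transcripts, quartiles of the factor at 3 h were 0.259 to 0.374 in KO and 0.305 to 0.405 in WT. That spread was not carried into the ratios. By the rule of 1.5-fold at all 3 times, 2 members were higher in KO (Oas3 and Oasl1), and 179 of all genes. On the spike-in scale 1 member remained (Oasl1), because Oas3 was under 1.5-fold at 3 h, whereas 255 of all genes (2.42%) were counted there. At a threshold of 2-fold 0 members and 61 of all genes (0.579%) were counted. The count over all genes was 356 from the 3 and 6 h libraries, 275 from those at 0 and 3 h, 470 from those at 0 h alone (added after the data were seen) and 99 with a mean of at least 5 RPKM. Fewer times to meet raise the count by construction. With a mean of at least 5 RPKM fewer genes were tested, and the share counted was 1.46%, against 1.7% by the main rule. The spike-in scale moved the mean log2 levels to between 0.83 and 1.38.

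No member was counted in decay under any alternative. Of the 10531 tested genes, 58 (pseudocount 1) to 972 (rate from 3 to 6 h alone) were counted as slower. As faster, 53 to 1234 were counted under the same 2 settings. With few genes counted under most settings, 0 of 6 members says little about the family. The rate from 0 to 6 h alone lengthened half-lives of the members in KO to between 1.70 and 5.18 h, and that of the median gene to 2.20 h. In WT it gave 1.28 to 2.92 h for the members and 1.71 h for the median gene. Without scaling, half-lives were 2.19 to 33.0 h in KO, where 2 members showed no loss, and 1.82 to 14.2 h in WT, where 3 showed none. The median gene then had 4.12 h in KO and 4.05 h in WT. Members with no loss, Oas1a and Oas1g among them, have no half-life to rank there. The cause of the long KO half-lives at 6 h was not tested. With 1 library per group, no replicate could be left out. No paired analysis was possible because each genotype is 1 culture. Counting errors of the members were smaller than their level ratios, whereas Tlr3 and Ifnb1 rest on low levels. For Oas1a and Oas1g the counting errors leave out how shared reads were divided, so that they understate the uncertainty of each.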

Other observations

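Outside the family, Apol9a and Apol9b were the genes of the promoter table whose windows hold the same 16 letters as those of Oas1a and Oas1g. They encode apolipoprotein L proteins, and were looked up after the promoters had been seen. After 0, 3 and 6 h of actinomycin D, Apol9b had 7.43, 3.88 and 4.79 RPKM in KO, against 1.81, 0.68 and 1.10 RPKM in WT. Its log2 ratio of KO to WT relative to the median gene was 2.08 ± 0.23 (mean and SD over the 3 times). Apol9a was read at 2.47, 1.27 and 1.34 RPKM in KO, against 1.12, 0.26 and 0.31 RPKM in WT, with a log2 ratio of 1.56 ± 0.45. These are close paralogs at low levels, and reads common to both could have been divided in any way. Apol9a passed the filter on low values through its KO libraries, so that its ratio is given as a description only.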
